A study of Homo sapiens with 6 samples.

Results

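The E2F, FOXM1 and MYBL2 transcripts were compared in A549, an established cell line from a human lung adenocarcinoma, between cultures given 50 nM mitoxantrone and cultures given DMSO at a dilution of 1/1000, each for 48 hours. Mitoxantrone is an anthracenedione that poisons DNA topoisomerase II, and DMSO is the solvent control. Each group had 3 libraries of total RNA, all from the same parental line with no transgene or deletion named. The members are the rows of the deposited table whose symbol is E2F followed by 1 digit, FOXM1 or MYBL2, which gave 5 of its 4546 genes: E2F1, E2F2, E2F8, FOXM1 and MYBL2. E2F3, E2F4, E2F5, E2F6 and E2F7 also fit the rule by name and were not listed, which does not mean that they were unchanged.

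E2F proteins bind the promoters of genes for DNA synthesis and are held inactive by the retinoblastoma family of pocket proteins until cyclin-dependent kinases phosphorylate those proteins. E2F1 and E2F2 are activators that pair with a DP partner, whereas E2F8 is an atypical member that binds DNA without DP and represses. MYBL2, or B-MYB, is itself an E2F target and joins the MuvB core complex to switch on genes of G2 and mitosis, and FOXM1, a forkhead factor, joins the same complex later in G2. In quiescent or p53-arrested cells the MuvB core is instead part of the repressor complex DREAM, with a pocket protein and a repressor E2F. p53 is wild type in A549 cells, and the line lacks the CDK4 and CDK6 inhibitor gene CDKN2A.

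All 5 members were lower with mitoxantrone, by 14.6-fold to 51.9-fold in normalized counts, which are reads divided by the library's size factor. With a threshold of 0.05 on the adjusted p of edgeR's quasi-likelihood test, the 5 were called lower, as were 41.1% of all listed genes, and 58.9% were called higher. The groups did not overlap in any of the 5, and the same held downward for 40.8% of listed genes. Each listed gene had already passed the authors' threshold on these libraries, so passing again adds no evidence. Over the listed genes, the authors' smallest absolute log2 fold change was 1.00 and their largest adjusted p was 0.0497. What the values show is the size of the falls. When the 1869 genes called lower were ordered by fold change, MYBL2 stood at place 31, E2F2 at 32, E2F8 at 61, FOXM1 at 101 and E2F1 at 163. The median log2 fold change of those 1869 genes was -1.52. Library totals ran from 16681380 to 21781220 reads, and 16.9% to 17.3% of each fell in listed genes. In RNA from bulk cultures, fewer cells expressing a gene and less RNA per cell cannot be told apart.

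**Figure D1:**
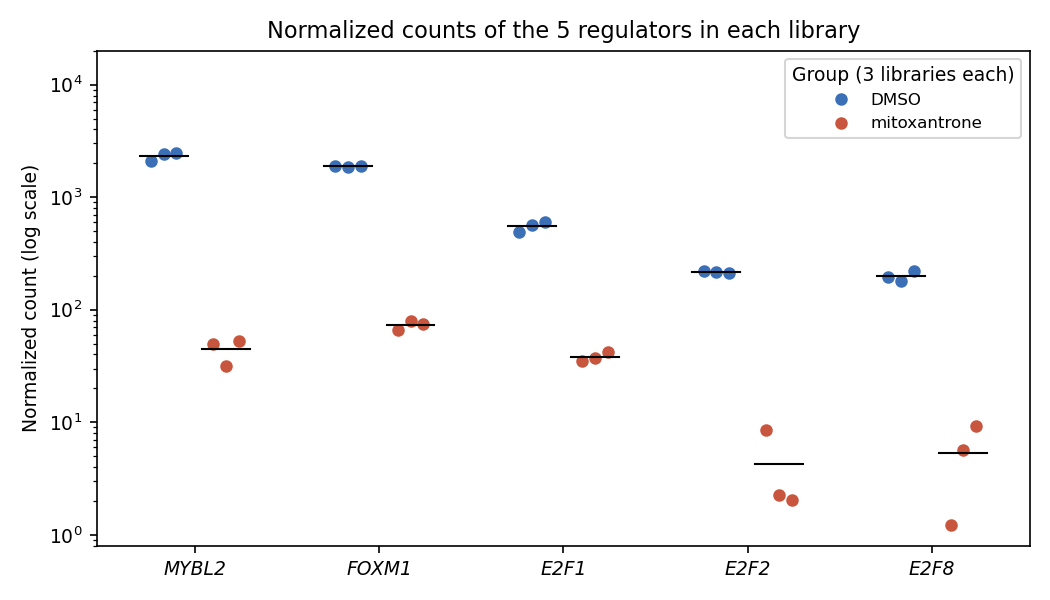
Normalized counts (log axis) of the 5 regulators in the 3 DMSO and 3 mitoxantrone libraries; points are libraries and short lines are group means. For each gene all mitoxantrone points lie below all DMSO points, and the mitoxantrone points of E2F2 and E2F8 spread from 1.21 to 9.18.

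E2F1, the first described activator of the family, had the smallest fall of the 5 in counts (on log2(FPKM + 1) values in limma, E2F2 at -1.58 and E2F8 at -1.74 changed less than E2F1 at -2.86). Its normalized counts were 489.6, 570.3 and 605 in DMSO 1 to 3 and 35.1, 37.3 and 41.8 in mitoxantrone 1 to 3. The lowest DMSO library thus lay far above the highest mitoxantrone library. The means were 555 ± 59.3 and 38.1 ± 3.44 (SD, n = 3 libraries per group), a 14.6-fold difference with a log2 fold change of -3.86 ± 0.14 (SE; edgeR, adjusted p = 3.6e-26). The gene (ENSG00000101412) lies on the minus strand of chromosome 20 at 32263489 to 32274210. Positions of genes are those of the deposited table, which names no build. For E2F1, E2F2 and MYBL2 they do not match the GRCh38.p14 promoter positions given below, so they cannot be set beside them.

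E2F2, the other activator, fell further from a lower level. It had 219, 215 and 211 normalized counts in DMSO 1 to 3, the tightest group among the E2F genes. The coefficient of variation was 1.92%, below the 6.40% that counting alone would give. In mitoxantrone 1 to 3, E2F2 had 8.47, 2.26 and 2.04, from 7, 2 and 2 reads, so mitoxantrone 1 stood above the rest of its group. The means of 215 ± 4.14 and 4.26 ± 3.65 differed 50.6-fold (log2 fold change -5.68 ± 0.26 SE; edgeR, adjusted p = 1.0e-22). With only 11 reads in the mitoxantrone group, the ratio of summed reads was 52.7 with an exact 95% interval of 29.3 to 106, which covers counting error only. Leaving out mitoxantrone 1 gave a log2 fold change of -6.57. E2F2 (ENSG00000007968) lies on the minus strand of chromosome 1, 23832922 to 23857712.

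E2F8, the atypical repressor, was also close to the limit of detection after mitoxantrone. It had 195, 179 and 219 normalized counts in DMSO 1 to 3 and 1.21, 5.64 and 9.18 in mitoxantrone 1 to 3, from 1, 5 and 9 reads. Mitoxantrone 1, the highest library of its group for E2F2, was the lowest for E2F8. The means were 198 ± 20.02 and 5.35 ± 3.99, 37.0-fold apart (log2 fold change -5.12 ± 0.26 SE; edgeR, adjusted p = 2.6e-21), and the exact 95% interval of the ratio of reads was 21.4 to 63.9. The estimate was -5.77 without mitoxantrone 3. The coefficient of variation in the mitoxantrone group was 74.7% for E2F8 and 85.8% for E2F2, where counting alone would give 44.7% and 52.2%. E2F8 (ENSG00000129173) lies on the minus strand of chromosome 11, 19245610 to 19263167.

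MYBL2 had the most reads of the 5 in DMSO and a fall that cannot be ranked against that of E2F2 (log2 fold changes of -5.69 for MYBL2 and -5.68 for E2F2 in edgeR, -5.69 and -5.72 in DESeq2). Normalized counts were 2101, 2421 and 2447 in DMSO 1 to 3 and 49.6, 31.6 and 53.0 in mitoxantrone 1 to 3, where mitoxantrone 2 was the lowest. The means of 2323 ± 193 and 44.8 ± 11.5 were 51.9-fold apart, with a log2 fold change of -5.69 ± 0.12 SE (edgeR, adjusted p = 1.4e-34). A total of 7896 reads in DMSO and 121 in mitoxantrone gave an exact 95% interval of 43.2 to 62.3 for the ratio, narrower than for E2F2 at a similar fold. MYBL2 (ENSG00000101057) lies on the plus strand of chromosome 20, 42295754 to 42345136.

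FOXM1 was, with E2F2, the most even of the 5 across replicates in DMSO. It had 1881, 1841 and 1909.5 normalized counts in DMSO 1 to 3, a coefficient of variation of 1.84%, and 66.5, 80.1 and 74.5 in mitoxantrone 1 to 3. In DMSO, counting alone would give 2.17% for FOXM1, and the observed value for E2F2 was 1.92%. The means of 1877 ± 34.4 and 73.7 ± 6.84 were 25.5-fold apart (log2 fold change -4.67 ± 0.10 SE; edgeR, adjusted p = 6.2e-34). FOXM1 therefore kept more normalized counts than MYBL2 after mitoxantrone, although it had fewer in DMSO. These counts are not adjusted for gene length, which is 4784 bases for FOXM1 and 2682 for MYBL2. Per length, the mitoxantrone ranges of FOXM1 (mean FPKM 0.775) and MYBL2 (0.838) overlapped. The span of FOXM1 (ENSG00000111206, minus strand of chromosome 12, 2966847 to 2986206) overlaps by 783 bases that of RHNO1, a checkpoint adaptor gene on the other strand. RHNO1 itself fell 2.70-fold, from 843 ± 74.2 to 313 ± 6.81 normalized counts (log2 fold change -1.43 ± 0.09 SE; edgeR, adjusted p = 6.2e-18). In GENCODE 29 (GRCh38) the exons of FOXM1 share 0 bases with RHNO1, and 781 of 4899 with the opposite-strand gene ITFG2, which was not listed. Whether the libraries kept strand is not given in the sources used here, so reads over those bases cannot be assigned to 1 gene. The exons of E2F8 share 7 bases with AC009652.2, and E2F1, E2F2 and MYBL2 overlap no other gene there.

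The authors' deposited table gave log2 fold changes of -3.80 for E2F1, -5.19 for E2F2, -4.76 for E2F8, -4.63 for FOXM1 and -5.62 for MYBL2. Each was smaller in size than the edgeR estimate. The gap was widest for E2F2 and E2F8, which had the fewest reads after mitoxantrone.

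**Figure D2:**
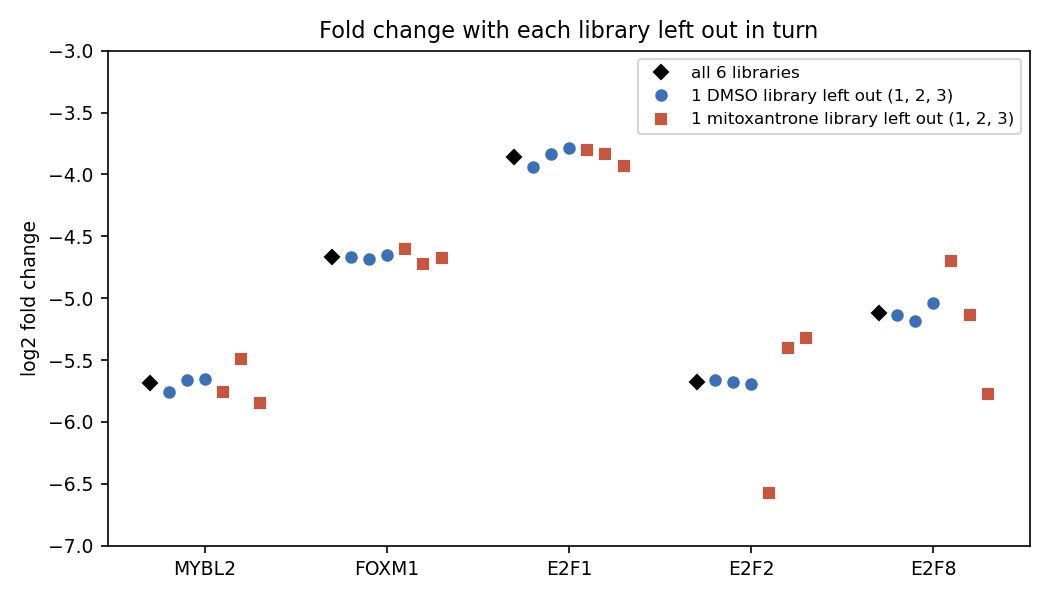
Log2 fold change of each regulator (mitoxantrone against DMSO, edgeR) with all 6 libraries and with each library left out in turn. Estimates for FOXM1 stay between -4.73 and -4.60, whereas those for E2F2 run from -6.57 to -5.32 and those for E2F8 from -5.77 to -4.70.

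Per length, the order of the 5 was clear in DMSO, and MYBL2, FOXM1 and E2F1 closed up after mitoxantrone. FPKM (fragments relative to gene length and to the library total), recomputed from the reads to avoid the rounding of low values, averaged 46.2 ± 3.75 for MYBL2, 20.9 ± 0.559 for FOXM1, 11.8 ± 1.27 for E2F1, 2.55 ± 0.277 for E2F8 and 2.11 ± 0.0417 for E2F2 in DMSO (SD, n = 3). Each range in that order lay above the next without overlap. After mitoxantrone the means were 0.838 ± 0.213 for MYBL2, 0.775 ± 0.0804 for FOXM1 and 0.765 ± 0.0765 for E2F1, and neighbouring ranges overlapped. E2F8 at 0.0653 ± 0.0490 and E2F2 at 0.0389 ± 0.0329 also overlapped and stayed below the other 3.

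**Figure D3:**
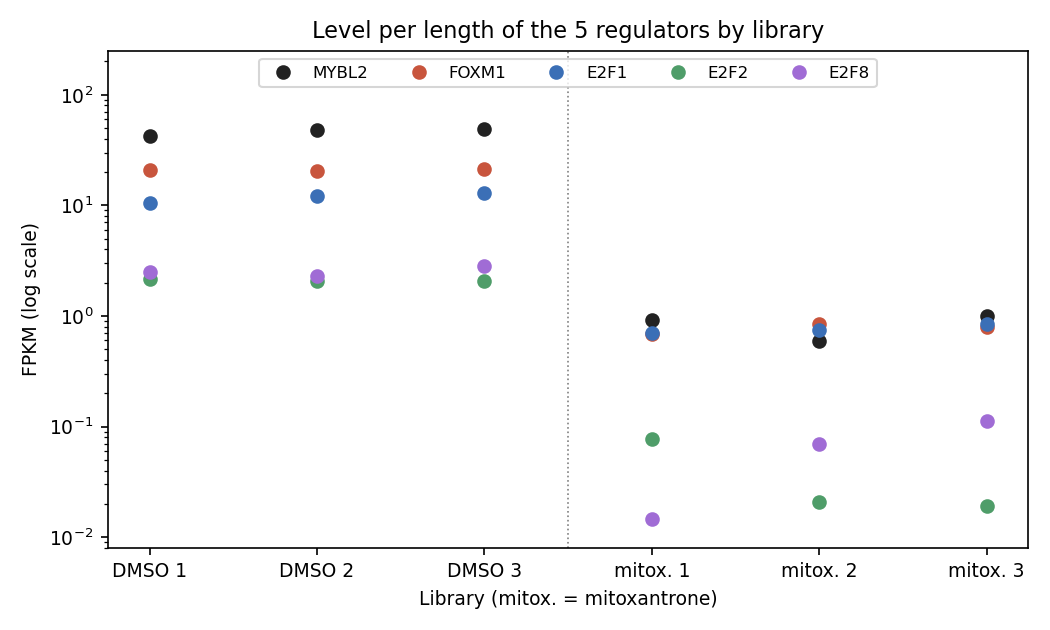
FPKM (log axis) of each regulator in the 6 libraries. In DMSO the 5 genes stand apart, from 2.08 for E2F2 to 49.0 for MYBL2, while after mitoxantrone MYBL2, FOXM1 and E2F1 lie together between 0.597 and 1.00.

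The unequal falls also appear as ratios of 2 members within a library, which do not depend on how libraries are scaled. MYBL2 stood above FOXM1 in each DMSO library, with log2 ratios of FOXM1 to MYBL2 of -0.99, -1.23 and -1.19. The ratios were -0.41, 0.51 and -0.35 in mitoxantrone 1 to 3, all higher than in DMSO. E2F1 to MYBL2 moved from a mean of -1.97 ± 0.05 to -0.10 ± 0.39, and E2F1 to FOXM1 from -0.83 ± 0.16 to -0.02 ± 0.14 (SD of log2 ratios). Of the 10 pairs, 5 had groups that did not overlap: these 3, E2F1 to E2F2 and E2F1 to E2F8. The gap widened in the last 2 pairs. E2F1 to E2F2 rose from a mean of 2.48 ± 0.18 to 4.61 ± 1.25, and E2F1 to E2F8 from 2.215 ± 0.17 to 3.98 ± 1.41. Each of the 5 pairs had p = 0.10 in a two-sided exact permutation test, the smallest that 3 against 3 libraries allow. Their adjusted p was 0.20 over the 10 pairs. No pair could therefore pass the threshold. In the other 5 pairs, each with E2F2 or E2F8, the groups overlapped (exact permutation p from 0.40 to 1, or 0.57 to 1 adjusted), which does not show that their ratios were alike. For E2F2 to E2F8 the log2 ratio was 2.41, -1.72 and -2.57 in mitoxantrone 1 to 3.

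RefSeq promoter sequences (GRCh38.p14, from 250 bases before to 50 after the start) were on hand for 3 of the 5 members and are shown because E2F family genes and MYBL2 are known to be under E2F control themselves. Capitals mark matches on either strand to the E2F words TTTGGCGC, TTTCGCGC, TTTCCCGC and TTTGCCGC, the shorter E2F-like word GGCGGGA, the CCAAT word and the word TTTGAA, known as CHR. A TTTCCCGC match on one strand can overlap a GGCGGGA match on the other.
E2F1 (chr20:33686336-33686635, minus strand): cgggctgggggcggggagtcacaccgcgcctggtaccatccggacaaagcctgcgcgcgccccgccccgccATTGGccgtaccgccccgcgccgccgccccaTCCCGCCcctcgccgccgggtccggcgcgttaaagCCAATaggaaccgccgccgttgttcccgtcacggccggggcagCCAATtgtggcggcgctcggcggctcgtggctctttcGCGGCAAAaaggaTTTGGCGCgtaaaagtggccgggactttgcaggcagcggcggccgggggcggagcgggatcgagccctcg
E2F2 (chr1:23531184-23531483, minus strand): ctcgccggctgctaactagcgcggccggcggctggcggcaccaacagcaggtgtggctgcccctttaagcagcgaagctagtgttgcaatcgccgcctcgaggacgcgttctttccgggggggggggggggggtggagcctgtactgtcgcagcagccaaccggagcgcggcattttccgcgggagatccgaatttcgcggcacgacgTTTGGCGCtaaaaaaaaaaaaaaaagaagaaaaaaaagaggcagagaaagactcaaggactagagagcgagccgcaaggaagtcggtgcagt
MYBL2 (chr20:43666864-43667163, plus strand): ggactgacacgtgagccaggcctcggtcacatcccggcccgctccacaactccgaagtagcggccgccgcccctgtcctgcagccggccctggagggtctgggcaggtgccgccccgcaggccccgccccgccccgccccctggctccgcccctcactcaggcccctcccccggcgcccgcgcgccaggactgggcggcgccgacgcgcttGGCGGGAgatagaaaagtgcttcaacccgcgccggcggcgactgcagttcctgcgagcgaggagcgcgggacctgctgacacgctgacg
E2F8 and FOXM1 are named only. The E2F1 window holds TTTGGCGC starting at base -20 and TTTGCCGC on the reverse strand at -33, with GGCGGGA on the reverse strand at -148 and 3 CCAAT words. The E2F2 window holds TTTGGCGC at -42, and the MYBL2 window holds GGCGGGA at -39. MYBL2 thus has only the shorter E2F-like word. Distances of the words from the start were not compared with those in other promoters. Of 35116 promoters of the same length, 0.652% hold TTTGGCGC, 0.607% hold TTTGCCGC, 3.31% hold any of the 4 E2F words, 15.4% hold GGCGGGA, 34.6% hold CCAAT and 15.2% hold TTTGAA. A match is a run of letters and not a measured site, and no binding was measured here.

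The other genes of the pathway were taken from lists chosen with earlier results of these data known. For each list, the background is all listed genes, of which 41.1% were called lower and 58.9% higher. Among the partners of E2F and the pocket proteins, 1 of 6 genes was listed: RBL1, which encodes the pocket protein p107, fell 4.75-fold from 677 ± 43.6 to 142 ± 20.7 normalized counts. Of the MuvB and MYB family, 5 of 8 genes appeared in the table, each of them lower, against 1869 of 4546 listed genes. Beside MYBL2 these were LIN9 (302 ± 17.3 to 49.8 ± 7.54 normalized counts, 6.08-fold), LIN52 (2.75-fold) and LIN54 (2.58-fold), all MuvB subunits, and MYBL1, or A-MYB (3.79-fold). MYBL2 fell by 5.69 on the log2 scale, where the median of the other 4 was -1.68. Of 44 forkhead genes 12 were listed, 10 lower and 2 higher, with a median of -1.17. FOXM1 had the largest fall of the 12, followed by FOXA3, a liver and gut endoderm factor, at 14.5-fold (131 ± 6.18 to 9.04 ± 3.91). FOXD3 fell 3.17-fold, while FOXD4 and FOXH1 were higher at log2 fold changes of 1.30 and 1.71 from low counts (12.4 ± 5.61 to 30.8 ± 13.4 and 3.25 ± 0.598 to 10.96 ± 4.39).

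Cyclins, kinases and CDC25 phosphatases that act on these regulators or their partners mostly fell with them. Of 20 such genes 17 were listed, 14 lower and 3 higher, with a median log2 fold change of -2.18. CDK1, the mitotic kinase, was 37.5-fold lower, PLK1, which phosphorylates FOXM1, 36.6-fold and CCNA2, cyclin A2, 31.9-fold. The exceptions were the G1 cyclins CCND1 (5921 ± 91.1 to 19162 ± 683 normalized counts, 3.24-fold higher), CCND3 (2.86-fold higher) and CCNE1 (2.04-fold higher). Not every listed G1 cyclin rose, as CCNE2 was lower at a log2 fold change of -1.43. Of the 7 CDK inhibitors 4 were listed. CDKN1A, which encodes p21, rose 8.03-fold, whereas CDKN1B, which encodes p27, fell 2.88-fold, CDKN2D 2.81-fold and CDKN2C 5.84-fold. All 7 listed of 9 ubiquitin ligase genes of the cell cycle were lower, with a median of -3.53, among them UBE2C (42.8-fold) and CDC20 (36.3-fold) of the anaphase-promoting complex pathway and DTL (23.2-fold), a substrate receptor of CUL4.

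Known targets of the 5 factors were mostly lower, with a larger median fall among G2/M genes than among G1/S genes. Of 45 G1/S genes under E2F control 39 were listed, 37 lower and 2 higher, with a median of -2.36 (-2.32 over the 38 other than E2F1). MCM10, a replication initiation factor, fell 40.7-fold and CDC45, of the replicative helicase, 33.5-fold, while PCNA, the sliding clamp, and CCNE1 were higher. Of 46 G2/M genes under FOXM1 and B-MYB control 45 were listed, all 45 lower, with a median of -4.75. DEPDC1 fell 106.5-fold, HMMR, a spindle-associated protein gene, 67.0-fold and KIF14, a kinesin of cytokinesis, 65.0-fold. A fall of more than 16-fold (a log2 fold change below -4) was seen in 7 of the 39 and in 31 of the 45. The median over all listed genes was 1.20. The estimates for E2F2 and MYBL2 lay below those of all 39 listed G1/S genes, though E2F2 (-5.68 ± 0.26 SE) and MCM10 (-5.36 ± 0.17) were close for their errors, and FOXM1 fell further than 21 of the 45 listed G2/M genes. These target lists share 0 listed genes with each other, and the difference between them was not tested. They do share genes with the lists above, 11 of the 17 listed cyclin, kinase and phosphatase genes and 3 of the 7 ubiquitin ligase genes, so those counts are not separate. RBL1 is also a G1/S gene of the list.

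The promoter words had different shares in the target lists, which hold textbook targets, some of them known through such sites. Any of the 4 E2F words was found in 42% of 50 promoters of the G1/S genes (33 genes matched by symbol) and in 12% of 50 promoters of the G2/M genes (37 matched). TTTGAA was found in 2% and 58% of them. Of the genes called lower 1203 were matched by symbol, and 7.83% of their 1763 promoters held an E2F word. Of those called higher 1502 were matched, with 2.37% of 2237 promoters. The share was 3.31% of all promoters. These shares are a description and were not tested.

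**Figure D4:**
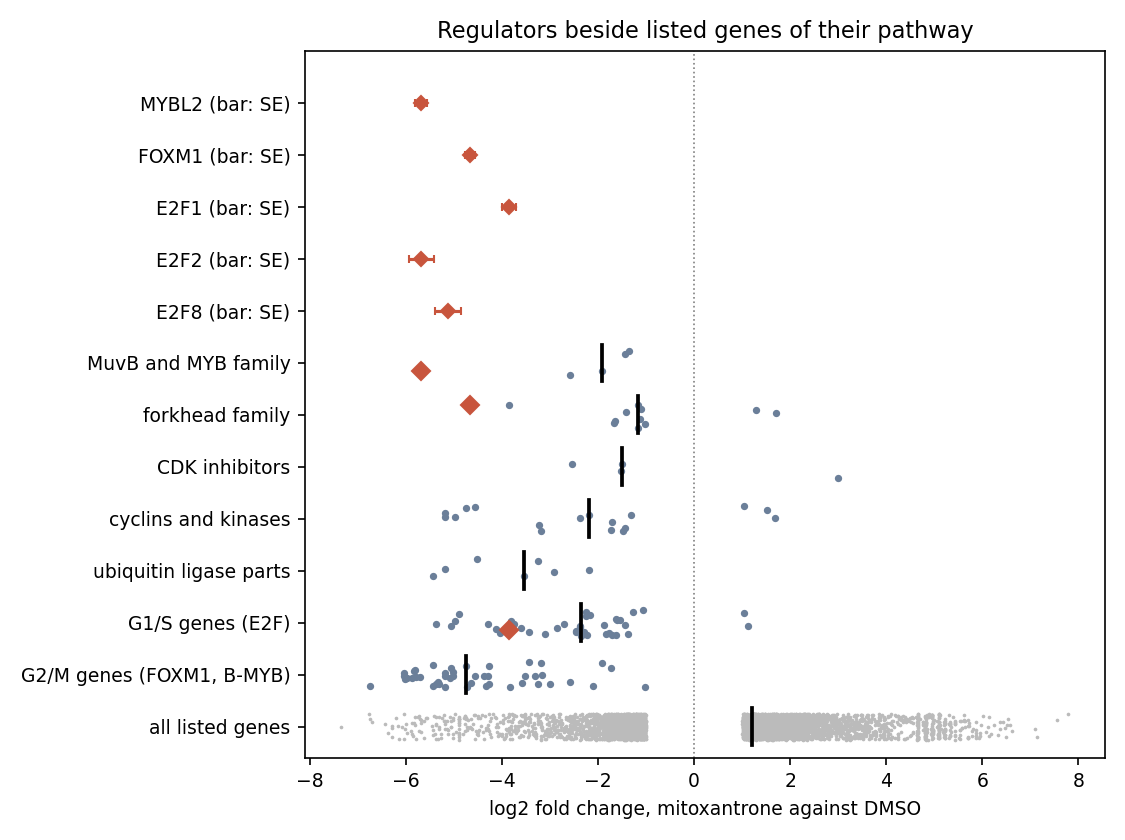
Log2 fold change (mitoxantrone against DMSO) of the 5 regulators with SE bars, of listed genes of pathway lists and of all 4546 listed genes. The lists of the E2F family and of E2F partners and pocket proteins are not drawn. Points are genes, black lines medians, and red diamonds the regulators. The regulators lie between -5.69 and -3.86, the G2/M median at -4.75 and the G1/S median at -2.36; no gene lies between -1 and 1 because of the authors' threshold.

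The genes with the most similar profiles to each member were found by the root mean square difference over the 6 libraries of log2(normalized count + 1), each gene centred on its own mean, among 2621 other genes with a mean of at least 50. Since the 2 groups differ in every gene searched, this measure mostly reflects the size of the fall and then the replicate spread. Nearest to FOXM1 was SHCBP1 (difference 0.0667), followed by ARHGAP11A (0.0937) and CIT, citron kinase of cytokinesis (0.0963). Nearest to E2F1 were BRCA1 (0.0830), the breast cancer repair gene, KIF23 (0.0946), a midzone kinesin, and GSG2 (0.110), the histone kinase haspin. MYBL2 had AURKB (0.112), the kinase of the chromosomal passenger complex, NCAPG (0.166), of condensin, and MKI67 (0.182). E2F2 and E2F8 had more distant neighbours, with MCM10 (0.249), NDC80 (0.332) and TROAP (0.376) for E2F2 and DIAPH3 (0.213), CDK1 (0.250) and GAS2L3 (0.381) for E2F8.

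Markers of the labelled cell type and of other cells could be read only where listed. Of 10 lung epithelial genes, KRT8, KRT19 and CDH1 were listed and all 3 were higher, with summed normalized counts of 59097 to 67895 in DMSO and 139689 to 153714 in mitoxantrone. Of 10 leukocyte genes 3 were listed (CD8A, CD14 and ITGAX), at sums of 41.8 to 56.9 and 251.7 to 258 counts. Of 10 fibroblast genes 3 were listed (COL1A1, THY1 and ACTA2), at summed counts of 775 to 810.2 and 1593 to 1848. These moved in both directions: ACTA2 rose from 143 ± 11.7 to 1349 ± 99.2 and THY1 from 31.4 ± 10.7 to 75.4 ± 11.4, while COL1A1 fell from 619.8 ± 38.9 to 267 ± 34.0. The remaining markers, PTPRC and EPCAM included, were not listed, and the part of any such cells in the falls of the 5 regulators was not tested.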

How the data were processed

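RNA sequencing libraries of A549 cells, 3 per treatment, were grouped by their titles. The deposited table holds, per the file headers, raw read counts and FPKM by the authors for every gene and library, the authors' mean normalized count (a signal made from counts over size factors), their log2 fold change with its standard error, a score (fold change over standard error), p-values and adjusted p-values, and gene length in bases. The submitters' processing notes list SAMtools 0.1.19, Cufflinks 2.2.1, HTSeq 0.6.1, HISAT2 2.0.1, cutadapt 1.9.1 and DESeq2, with no role; the build is not given in the sources used here.

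Size factors were solved from counts and the authors' means (largest relative residual 4.8e-10), and library totals from FPKM of at least 20. Mitoxantrone was compared with DMSO over all 4546 genes with edgeR 4.0.16 (R 4.3.3; glmQLFit, glmQLFTest, no filter, no covariate), with Benjamini-Hochberg adjustment and a threshold of 0.05. SE is the absolute log2 fold change over the square root of F. Alternatives were 3 other scalings, DESeq2 1.42.0, limma 3.58.1 on log2(FPKM + 0.1) or log2(FPKM + 1), a filter on low values, a stricter threshold, glmTreat against a 2-fold change, a replicate block and each library left out. Intervals of ratios are exact (Clopper-Pearson, 95%). These intervals pool the reads of each group, so they cover counting error only and not the spread between libraries. The reads carry no molecular identifiers, so copies of the same molecule are not told apart.

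Members and lists were chosen with earlier results of these data known. Named genes were the members, every listed gene of lists with 6 or fewer, otherwise the 3 largest changes (higher group's mean at least 50) plus those against the majority, the 3 most similar profiles, and genes within 5000 bases of a member. FPKM in ratios of members was recomputed from reads, length and library total. No label states that replicates came from separate cultures; p-values then cover only the spread of these samples, possibly a technical one.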

Additional observations from a re-analysis of the deposited data

How the results depend on the processing

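All 85 values of the 5 regulators' log2 fold changes under the alternatives kept their direction and passed the threshold; E2F1's alternatives and the use of rounded FPKM in ratios were added after seeing the data. The pseudocount mattered most for low genes: with log2(FPKM + 1) in limma the log2 fold changes of E2F2 and E2F8 were -1.58 and -1.74, since 1 exceeds their FPKM after mitoxantrone. TMM on the listed genes shifted the median gene by -0.26 log2 and put MYBL2 at -5.95 and E2F1 at -4.11. Counts of calls kept within 1.5 times of their value in 351 of 357 cases. The exceptions were 1224 genes higher in limma with FPKM of at least 1 in 3 samples, where fewer genes were tested; forkhead genes higher, 1 with the count filter, 1 against a 2-fold change and 0 in limma with that FPKM filter; and, against a 2-fold change, 6 forkhead genes lower and 1 G1/S gene higher. Of 80 pair ratios 7 reversed. The change in E2F8 to MYBL2 ran from -0.39 to 1.05 with 1 library left out and was -0.0873 with rounded FPKM, E2F2 to E2F8 ran from -1.87 to 0.61 and E2F2 to MYBL2 from -0.83 to 0.25; E2F2 and E2F8 had 1 to 9 reads per mitoxantrone library, and the cause was not tested. Deviations of libraries with the same number had correlations of -0.07, -0.08 and 0.03 (2622 genes). No pairing by number was detected, but with 3 libraries per group these correlations cannot exclude it. With the replicate block 2677 genes were higher and 1869 lower, with all 5 regulators called lower.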

Other observations

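Some of the annotation terms deposited with the table and shared by at least 2 of the 5 regulators are given here. All 5 carried the term for sequence-specific DNA binding transcription factor activity, which was held by 186 listed genes, 144 lower and 42 higher with mitoxantrone. E2F1, E2F2 and MYBL2 carried the term mitotic cell cycle, held by 170 listed genes, 160 lower and 10 higher. E2F1, E2F2 and E2F8 carried core promoter binding, with 7 of its 8 listed genes lower. E2F1 and E2F8 carried transcription corepressor activity, with 38 of its 43 listed genes lower. Other shared terms were split more evenly. Cell proliferation (E2F1 and E2F8) had 41 listed genes lower and 43 higher, and protein binding (E2F1, E2F2 and FOXM1) 572 lower and 528 higher. Among all listed genes 1869 were lower and 2677 higher.

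Near FOXM1, the listed gene AC005841.1 on the same strand starts 634 bases beyond the 3′ end of FOXM1. It went the other way, at 1.71, 3.72 and 7.76 normalized counts in DMSO 1 to 3 and 25.4, 10.2 and 15.3 in mitoxantrone 1 to 3 (log2 fold change 1.901 ± 0.51 SE; edgeR, adjusted p = 0.00072). Its counts were low in both groups. The groups did not overlap, and the same held for 4470 of the 4546 listed genes, all past the authors' threshold on these libraries.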
